A study of Mus musculus with 4 samples.

Results

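Keratin-associated protein (Krtap) genes were examined for open chromatin in hair follicle stem cells (HFSC) that lacked or kept the gene Irx5. The group was taken by symbol, as every protein-coding gene of the mm10 assembly whose name starts with Krtap, and held 56 of 21887 coding genes. Of these, 5 lay in a cluster on chromosome 7, 23 on chromosome 11 and 24 on chromosome 16, while 3 lay on chromosome 10 and 1 on chromosome 1. The genes were short, with a median length of 833 bp against 17169 bp over all coding genes.

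Krtap proteins form the matrix in which the keratin filaments of the hair shaft are embedded, and they link these filaments through disulfide bonds. They are made late, in the differentiating cells of the shaft above the hair bulb, and are not known as products of the resting stem cells of the bulge. By the usual grouping of the families, high sulfur and ultra-high sulfur proteins are rich in cysteine, whereas high glycine-tyrosine proteins are small and rich in those residues. Several of the families, such as Krtap4, Krtap5 and Krtap19, have copies side by side in the genome.

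The 4 samples were mouse HFSC, 2 labelled Irx5KO and 2 labelled WT, sorted by flow cytometry for CD34, for a marker that the labels write as CD45f and against Ly-6A/E. ATAC-seq, in which the transposase Tn5 tags open DNA, was used on all of them. Irx5 encodes a homeodomain factor of the Iroquois family, and the sources used here do not describe the allele or the age and strain of the mice. The deposited data were 1 peak list per genotype made from both samples, so no value per sample, no spread between samples and no test between genotypes could be given.

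The Irx5KO list held 484992 peaks on the standard chromosomes and the WT list 498061, with no read depth. At Irx5 itself the Irx5KO list held 4 peaks over the gene body and the WT list 2, so the lists do not check the genotype labels. All 8 HFSC markers examined, among them Cd34, Sox9, Lhx2 and Lgr5, had a peak within 1000 bp of a gene end in both lists, where 81.3% (Irx5KO) and 79.2% (WT) of all coding genes had one. Of 5 immune markers, 0 had such a peak in the Irx5KO list and 3 (Ptprc, Cd74 and Lyz2) in the WT list. Of 5 melanocyte markers, 2 had one in the Irx5KO list and 5 in the WT list, and of 4 endothelial markers 2 and 3. The other lists went the opposite way, with 5 (Irx5KO) and 4 (WT) of 5 fibroblast markers and 5 and 4 of 6 markers of the epidermis. The part of such cells in any value below was not tested. In a bulk sample of sorted cells, fewer cells with an open site and less opening per cell cannot be told apart. A peak found in 1 list only is no measure of loss or gain, because depth and the calling threshold shape each list. All intervals are 95% Wilson intervals and cover counting error only.

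The DNA before the gene starts is given first, to show the sites at which the lists disagreed and the motifs that members share. Sequences of 300 bases, 250 before to 50 after the annotated start, were on hand for 51 of the 56 members from RefSeq (GRCm38.p6, the mm10 assembly). A peak overlapped this window at 22 of 51 members (43.1%) in the Irx5KO list and at 23 (45.1%) in the WT list. Over 21263 annotated starts of coding genes, which belong to 17492 genes, the figures were 66.3% and 63%. Coding genes up to 2000 bp other than Krtap stood at 41.1% and 42.3%, close to the Krtap values. Keratin genes stood at 8.11% and 2.70%, and olfactory and vomeronasal receptor genes at 31.2% and 34.9%. Both lists covered 19 windows (37.3%), the Irx5KO list alone 3 (5.88%), the WT list alone 4 (7.84%) and neither list 25 (49.0%). The background over all coding starts was 59.6%, 6.68%, 3.37% and 30.3%. Starts of coding genes up to 2000 bp gave 35.2%, 5.96%, 7.13% and 51.7%.

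The 250 bases before the start are shown 5′ to 3′ for the 7 members whose window was listed in 1 genotype, with capitals for the motifs searched on either strand, which were the TATA box TATAAA, the TCF/LEF sites CTTTGAA or alternatively CTTTGTT, and the Iroquois site ACANNTGT. The 3 windows covered in the Irx5KO list alone belong to Krtap17-1 (chr11:99993995-99994244, minus strand), Krtap19-4 (chr16:88885090-88885339, minus strand) and Krtap21-1 (chr16:89403775-89404024, minus strand). Krtap17-1 holds a TATA box and, reading AACAAAG, the reverse complement of CTTTGTT, and Krtap19-4 holds a match to ACANNTGT.

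Krtap17-1: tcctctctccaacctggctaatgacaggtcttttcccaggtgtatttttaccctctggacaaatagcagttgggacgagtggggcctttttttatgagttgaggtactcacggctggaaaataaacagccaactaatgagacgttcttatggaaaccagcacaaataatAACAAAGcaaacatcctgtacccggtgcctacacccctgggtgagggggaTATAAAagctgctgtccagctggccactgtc

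Krtap19-4: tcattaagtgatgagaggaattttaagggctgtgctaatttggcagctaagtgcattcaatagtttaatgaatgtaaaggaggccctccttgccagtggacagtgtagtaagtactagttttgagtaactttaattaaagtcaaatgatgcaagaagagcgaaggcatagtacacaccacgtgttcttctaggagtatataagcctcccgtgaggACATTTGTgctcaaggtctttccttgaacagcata

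Krtap21-1: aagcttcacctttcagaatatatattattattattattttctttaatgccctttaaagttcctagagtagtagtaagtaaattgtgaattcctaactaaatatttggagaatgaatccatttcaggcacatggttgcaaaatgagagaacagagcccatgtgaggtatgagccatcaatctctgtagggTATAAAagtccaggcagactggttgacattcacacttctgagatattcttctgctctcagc

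The 4 windows covered in the WT list alone belong to Krtap5-3 (chr7:142201114-142201363, plus strand), Krtap19-9b (chr16:88932265-88932514, minus strand), Krtap22-2 (chr16:89010760-89011009, minus strand) and Krtap6-3 (chr16:89083774-89084023, plus strand). The last 3 hold a TATA box near the start, and Krtap5-3 holds none of the searched motifs.

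Krtap5-3: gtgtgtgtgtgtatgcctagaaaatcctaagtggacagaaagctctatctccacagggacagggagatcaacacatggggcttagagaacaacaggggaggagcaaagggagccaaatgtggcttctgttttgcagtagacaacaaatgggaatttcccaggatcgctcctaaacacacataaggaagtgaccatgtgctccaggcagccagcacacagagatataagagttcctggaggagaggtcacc

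Krtap19-9b: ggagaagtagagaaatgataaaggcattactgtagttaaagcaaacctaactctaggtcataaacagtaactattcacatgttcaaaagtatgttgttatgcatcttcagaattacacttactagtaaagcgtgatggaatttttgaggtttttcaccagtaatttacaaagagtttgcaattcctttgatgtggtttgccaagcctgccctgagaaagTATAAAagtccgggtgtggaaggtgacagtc

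Krtap22-2: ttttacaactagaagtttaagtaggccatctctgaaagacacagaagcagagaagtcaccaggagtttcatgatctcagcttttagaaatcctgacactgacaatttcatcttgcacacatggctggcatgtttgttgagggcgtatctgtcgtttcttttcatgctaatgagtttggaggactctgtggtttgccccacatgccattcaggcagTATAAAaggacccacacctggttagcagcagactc

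Krtap6-3: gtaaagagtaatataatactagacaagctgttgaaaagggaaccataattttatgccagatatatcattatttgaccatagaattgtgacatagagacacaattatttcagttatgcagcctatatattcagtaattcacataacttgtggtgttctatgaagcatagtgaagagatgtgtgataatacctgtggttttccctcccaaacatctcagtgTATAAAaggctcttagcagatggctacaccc

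The member whose gene-end peak stood highest in the Irx5KO list, Krtap6-2 (chr16:89420112-89420361, minus strand), is shown beside them. Its window was covered in both lists and holds TATAAA, which begins 49 bases before the start. A match to ACANNTGT begins 32 bases after the start, beyond the bases shown.

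Krtap6-2: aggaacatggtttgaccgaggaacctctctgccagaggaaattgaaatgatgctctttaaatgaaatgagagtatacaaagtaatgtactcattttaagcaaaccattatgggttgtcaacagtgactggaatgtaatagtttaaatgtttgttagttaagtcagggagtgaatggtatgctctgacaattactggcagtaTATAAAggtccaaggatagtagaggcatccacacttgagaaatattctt

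Of these 7 differences, 3 were differences of a peak's border and not of its presence. At Krtap5-3, Krtap6-3 and Krtap21-1 the peak was shared, and the nearest peak of the other list ended 28, 24 and 5 bp short of the window. The other 4 came from peaks in 1 list only, all of low rank by the authors' score. In the Irx5KO list the peak at Krtap17-1 (chr11:99994151-99994690) stood at percentile 21.5 of its list and that at Krtap19-4 (chr16:88884831-88885170) at percentile 6.59. In the WT list the peak at Krtap19-9b (chr16:88932041-88932290) stood at percentile 14.3 and that at Krtap22-2 (chr16:89010691-89010940) at percentile 7.89. The nearest peak of the other list lay 3605 bp from the window of Krtap17-1, 2172 bp from that of Krtap19-4, 9507 bp from that of Krtap19-9b and 730 bp from that of Krtap22-2.

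The letters TATAAA, the core of the TATA box that places RNA polymerase II, were found on either strand in 42 of 51 Krtap windows (82.4%) and in 12.6% of 21263 windows of coding genes. On the gene's own strand, starting 15 to 45 bases before the start, they were found in 32 of 51 (62.7%) against 2.66% of all. Keratin genes held TATAAA in 19 of 37 windows (51.4%), and Lce and Sprr genes of the skin barrier in 14 of 34 (41.2%). At that position on the gene's own strand, 13 of 37 keratin windows (35.1%) and 12 of 34 Lce and Sprr windows (35.3%) held it. Coding genes of up to 2000 bp held it in 33.4%, of which 5.44% of all such genes had it at the position of a TATA box. Among Krtap genes it was present in 18 of 19 Krtap windows under a peak in both lists and in 19 of 25 windows under none.

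The other motifs were rarer. CTTTGAA and CTTTGTT, forms of the site bound by the TCF/LEF factors of Wnt signalling, were found in 9 (17.6%) and 7 (13.7%) of 51 Krtap windows against 4.54% and 5.01% of all. Keratin windows held CTTTGAA in 6 of 37 (16.2%), close to the Krtap share. CTTTGAA was found in 1 of the 19 windows under a peak in both lists and in 8 of the 25 under none. ACANNTGT, a palindrome bound by Iroquois factors, was found in 9 of 51 (17.6%) against 6.06% of all, 11.9% of coding genes up to 2000 bp and 18.6% of olfactory and vomeronasal receptor genes. It stood in 5 of 19 windows covered in both lists, 1 of 3 covered in Irx5KO alone, 0 of 4 covered in WT alone and 3 of 25 covered in neither. A match says only that these letters are present.

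Near the start, more Krtap genes had a peak just inside the gene than just before it. At 200 bp before the start, a peak covered 3 of 51 members (5.88%) in the Irx5KO list and 2 (3.92%) in the WT list. At the start itself it covered 14 (27.5%) and 18 (35.3%). At 200 bp into the gene it covered 23 (45.1%) and 25 (49.0%), of which 22 were covered in both lists, 1 in Irx5KO alone and 3 in WT alone. Farther out, at 2800 bp before the start, 9 of 51 (17.6%) were covered in each list. Other coding genes up to 2000 bp were covered there at 17.5% (Irx5KO) and 19.8% (WT). At 350 bp before the start, 6 Krtap members (11.8%) were covered in the Irx5KO list and 2 in the WT list. The order was reversed at 100 bp before the start, with 3 in the Irx5KO list and 6 in the WT list. The other short genes stood at 22.2% and 20.8% at 350 bp, and at 26.6% and 27.6% at 100 bp. Over the 21263 annotated starts of coding genes the first 3 positions were covered at 55.2% and 49.0% before the start, 62.4% and 57.8% at the start, and 59.1% and 52.3% inside. These starts belong to 17492 genes.

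Other short genes had part of this shape. Coding genes of up to 2000 bp were covered at 45.5% (Irx5KO) and 47.1% (WT) of starts at 200 bp into the gene, close to the Krtap values. Before the start they were covered at 24.5% and 23.4%. Olfactory and vomeronasal receptor genes, which skin cells are not known to use, were covered at 40.9% and 44.1% inside and at 12.7% and 14.5% before the start. Of the keratin genes, 1 of 37 was covered at 200 bp into the gene in each list. No test of these differences was run.

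**Figure D1:**
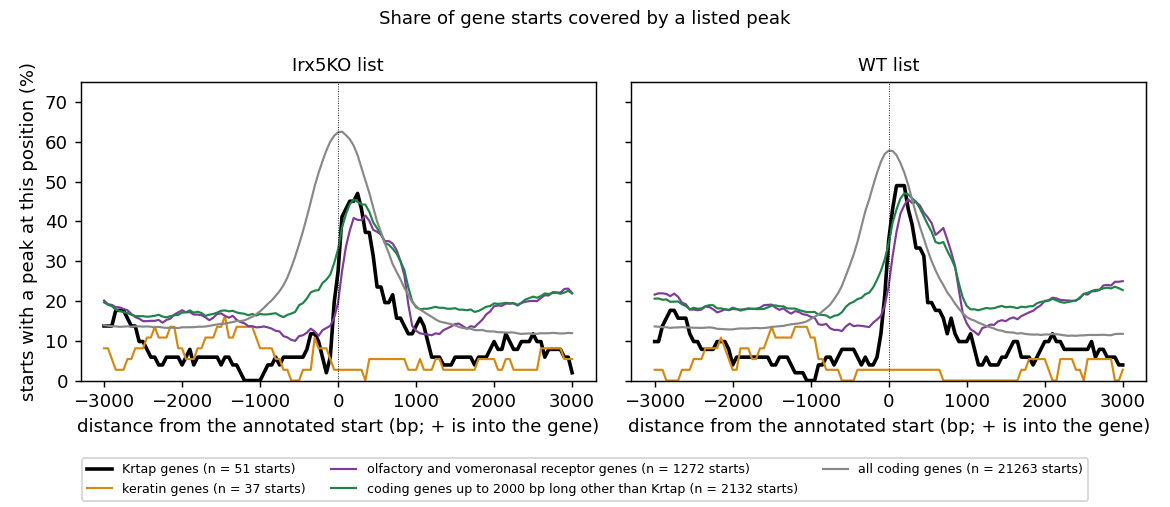
Share of gene starts (%) under a listed peak, by distance from the annotated start in bp (positive into the gene), for the Irx5KO list (left) and the WT list (right). Lines stand for 51 Krtap, 37 keratin, 1272 olfactory and vomeronasal receptor, 2132 other short coding and 21263 coding starts. The Krtap line stands at 5.88% (Irx5KO) and 3.92% (WT) at 200 bp before the start and reaches 45.1% (Irx5KO) and 49.0% (WT) at 200 bp inside.

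Within 1000 bp of either gene end, 38 of 56 members (67.9%, interval 54.8 to 78.6) had a peak in the Irx5KO list and 36 (64.3%, interval 51.2 to 75.5) in the WT list. The background was 81.3% and 79.2% of all coding genes, and 67.3% and 68.9% of coding genes up to 2000 bp. Both lists had such a peak at 33 members, the Irx5KO list alone at 5, the WT list alone at 3 and neither list at 15. Over all coding genes these classes held 75.2%, 6.07%, 3.99% and 14.7%, against 58.9%, 8.93%, 5.36% and 26.8% of the Krtap genes. Keratin genes, whose products form the filaments that Krtap proteins bind, had a gene-end peak in 24 of 53 (45.3%) in the Irx5KO list and 20 (37.7%) in the WT list. Lce and Sprr genes had one in 32 of 35 (91.4%) in both lists. At all 8 Krtap genes with a gene-end peak in 1 list, that peak overlapped no peak of the other list. The percentiles ran from 3.49 (Krtap19-5) to 21.5 (Krtap17-1) for the 5 Irx5KO peaks, and were 14.3, 43.2 and 43.9 for the WT peaks at Krtap19-9b, Krtap16-3 and Krtap27-1. The nearest peak of the other list lay outside the gene-end windows by 796 bp at Krtap27-1, 984 bp at Krtap16-3 and 1422 bp or more at the others.

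**Figure D2:**
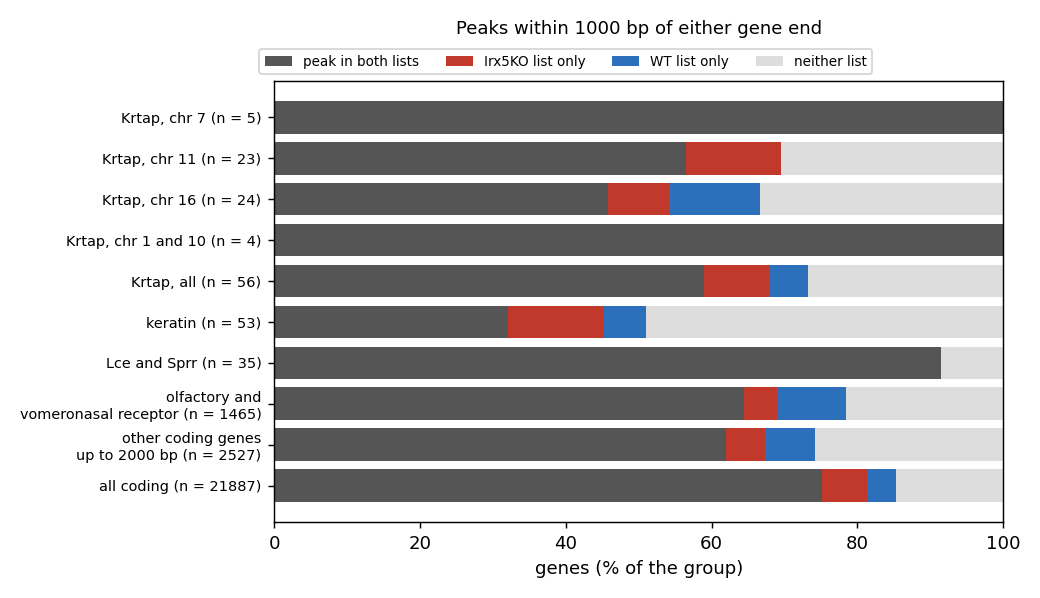
Share of genes (%) in each group with a listed peak within 1000 bp of a gene end in both lists (dark grey), Irx5KO only (red), WT only (blue) or neither (light grey). All Krtap genes of chromosomes 7, 1 and 10 are in the first class, whereas 7 of 23 on chromosome 11 and 8 of 24 on chromosome 16 have no such peak in either list.

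A total of 193 Irx5KO peaks and 192 WT peaks had a Krtap gene as the nearest coding gene within 50 kb. Of these, 156 Irx5KO peaks (80.8%) and 153 WT peaks (79.7%) overlapped a peak of the other list by at least 1 bp. Over all coding genes 76.7% and 74.7% did. The remaining 37 Irx5KO-only and 39 WT-only peaks correspond to a background of 23.3% and 25.3% of assigned peaks. The Irx5KO list thus gave 48.7% of the genotype-only peaks (interval 37.8 to 59.7), beside 48.0% over all coding genes and 40.1% over coding genes up to 2000 bp. Members with more Irx5KO-only peaks numbered 17 of 56, against 36.4% of all coding genes, and members with more WT-only peaks 18, against 36.6%. In the remaining 21 members the counts were equal, 17 of them with no genotype-only peak.

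Genotype-only peaks at Krtap genes were narrow and low in rank. Their median percentile by score was 17.6 in the Irx5KO list and 20.3 in the WT list, against 62.8 and 66.7 for shared peaks at the same genes. Median widths were 280 and 250 bp, against 470 and 480 bp for shared peaks. Over all coding genes the median percentiles were 15.5 and 18.0 for genotype-only peaks. The score is the authors' own and was used to rank peaks within a list.

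**Figure D3:**
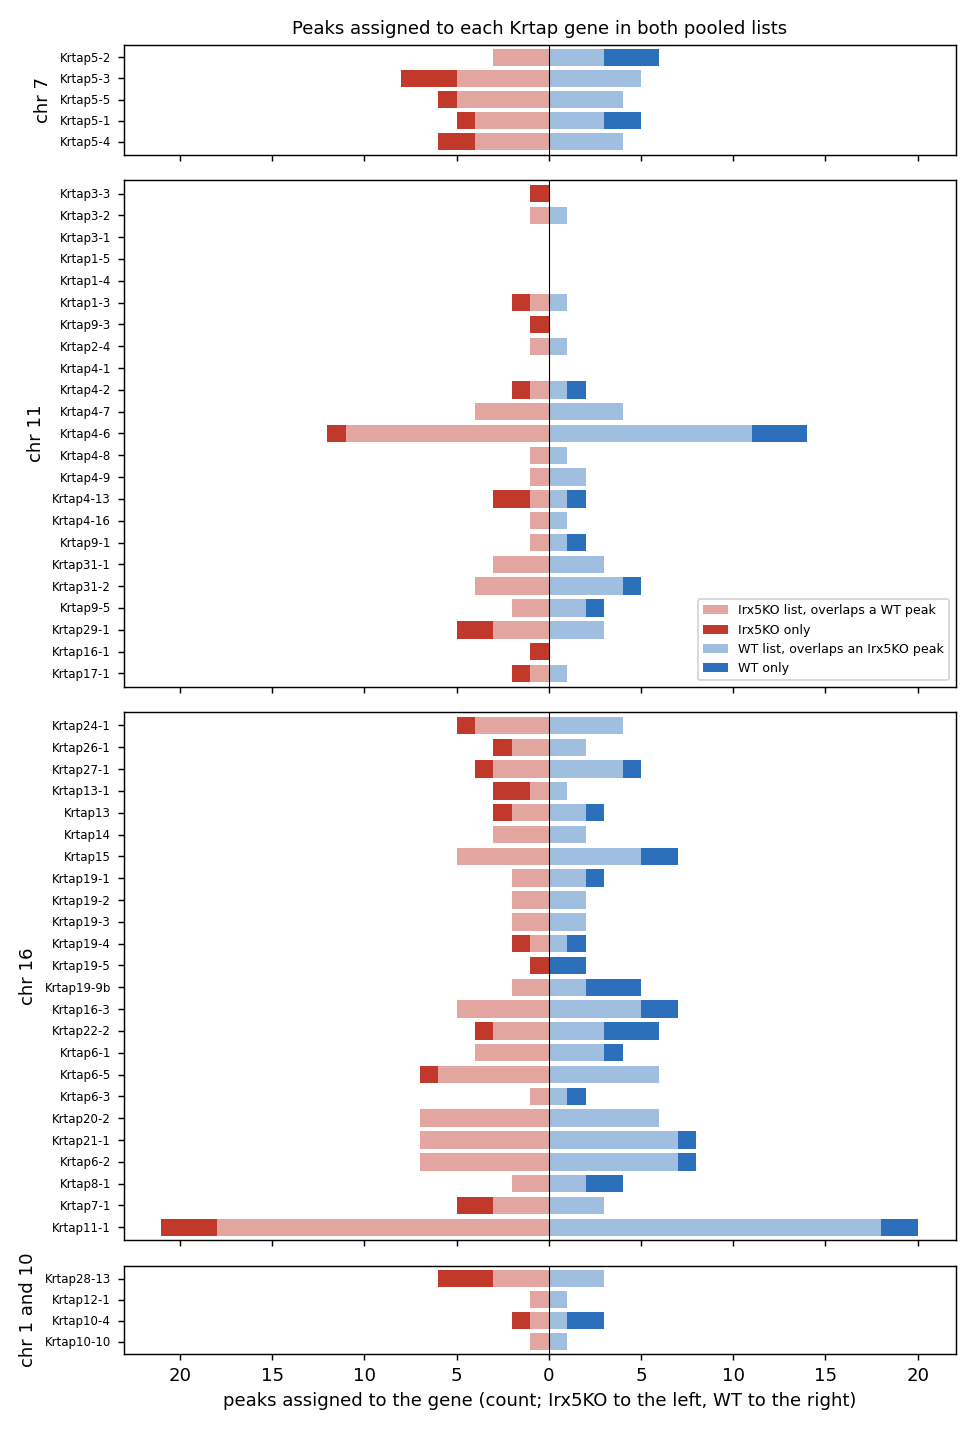
Number of peaks assigned to each Krtap gene, Irx5KO to the left and WT to the right, with pale bars for peaks that overlap the other list and dark bars for genotype-only peaks. Genes are in order of position within each cluster. Krtap11-1 has the most, 21 Irx5KO and 20 WT peaks, and 4 genes of chromosome 11 have none.

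On chromosome 7 the cluster consisted of the 5 members of the Krtap5 family, which encode ultra-high sulfur proteins. Every one had a gene-end peak in both lists and a peak over its body. The median of the best gene-end percentile was 79.6 in the Irx5KO list and 92.1 in the WT list, where all coding genes had 61.9 and 53.0. The 5 other coding genes inside this span had 62.5 and 81.1, also higher in WT. Krtap5-3 had 8 Irx5KO and 5 WT peaks, with 3 Irx5KO-only and 0 WT-only. Its main peak lay over the gene at chr7:142201441-142202450 in Irx5KO (percentile 90.9) and reached across the start in WT, at chr7:142201271-142202490 (percentile 98.4). Krtap5-2 had 3 Irx5KO and 6 WT peaks, with 0 Irx5KO-only and 3 WT-only.

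The other Krtap5 genes lay between these. Krtap5-5 had 6 and 4 peaks (1 Irx5KO-only), Krtap5-1 had 5 and 5 (1 Irx5KO-only and 2 WT-only), and Krtap5-4 had 6 and 4 (2 Irx5KO-only). Peaks covered the whole body of Krtap5-1 in both lists. The highest-ranked genotype-only peaks were at Krtap5-3 (chr7:142204601-142204830, percentile 51.4) and Krtap5-4 (percentile 32.7) in the Irx5KO list, and at Krtap5-2 (32.6) and Krtap5-1 (30.4) in the WT list. In sum the 7 Irx5KO-only and 5 WT-only peaks of the cluster gave an Irx5KO share of 58.3% (interval 31.95 to 80.7).

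On chromosome 11 the cluster is given in 2 stretches, which were set after the values were seen. The first 10 members, from Krtap3-3 to Krtap4-2, encode mostly high sulfur proteins of the hair cortex and had 8 Irx5KO and 5 WT peaks in all. Gene-end peaks were listed in both genotypes at 3 of them (Krtap3-2, Krtap2-4 and Krtap4-2), in the Irx5KO list alone at Krtap3-3, and in neither at 6. Krtap3-1, Krtap1-5, Krtap1-4 and Krtap4-1 had no assigned peak in either list, which makes 4 of 56 members against 2.85% of all coding genes and 156 of 2527 coding genes up to 2000 bp. Peaks covered 5.18% (Irx5KO) and 4.64% (WT) of the bases of this stretch of 85.0 kb. Over the following 359 kb, to Krtap17-1, they covered 18.2% and 17.6%.

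The 13 members of the second stretch had 40 Irx5KO and 41 WT peaks, with gene-end peaks in both lists at 10, in the Irx5KO list alone at Krtap16-1 and Krtap17-1, and in neither at Krtap29-1. Krtap4-6 had the most, 12 Irx5KO and 14 WT peaks, with 1 Irx5KO-only and 3 WT-only. A shared one, 4500 bp wide in Irx5KO and 4510 bp in WT, lay 49011 and 49016 bp from the gene end and so close to the limit of 50 kb. Krtap4-7 had 4 and 4 peaks, all shared. Krtap31-2 had 4 and 5 (1 WT-only), and Krtap29-1 had 5 and 3 (2 Irx5KO-only). The start windows of Krtap31-1 and Krtap31-2 had 82.3% identical bases.

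On chromosome 11 the WT list alone gave a gene-end peak at 0 members and the Irx5KO list alone at 3, against 3.99% and 6.07% of all coding genes. The 3 Irx5KO-only gene-end peaks were of low rank, at percentile 7.26 for Krtap3-3, 12.8 for Krtap16-1 and 21.5 for Krtap17-1. The highest-ranked genotype-only peak of the cluster was an Irx5KO peak near Krtap9-3 (chr11:99599991-99600200, percentile 73.4), 210 bp wide. The next Irx5KO-only peak was at Krtap4-2 (percentile 40.9), and the highest WT-only peaks were at Krtap9-1 (44.7) and Krtap31-2 (33.3). The 11 Irx5KO-only and 8 WT-only peaks of the cluster gave an Irx5KO share of 57.9% (interval 36.3 to 76.9).

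On chromosome 16 the cluster was the longest, 960 kb, and its 24 members had 107 Irx5KO and 114 WT peaks. Among the 7 members from Krtap24-1 to Krtap15, all high sulfur genes, 5 had no gene-end peak in either list, Krtap13 had one in both and Krtap27-1 one in WT only (percentile 43.9). They were not without peaks at a distance, since 26 Irx5KO and 24 WT peaks were nearest to them. Krtap15 had 5 Irx5KO and 7 WT peaks (2 WT-only), and Krtap13-1 had 3 and 1 (2 Irx5KO-only).

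The next 7 members, the Krtap19 genes and Krtap16-3, had 16 Irx5KO and 23 WT peaks, of which 2 were Irx5KO-only and 9 WT-only, an Irx5KO share of 18.2% (interval 5.14 to 47.7). Both lists had a gene-end peak at Krtap19-2 and Krtap19-3, the Irx5KO list alone at Krtap19-4 and Krtap19-5, the WT list alone at Krtap19-9b and Krtap16-3, and neither at Krtap19-1. Krtap19-9b had 2 Irx5KO and 5 WT peaks (3 WT-only), and Krtap16-3 had 5 and 7 (2 WT-only). Krtap19-5 had 1 Irx5KO-only peak at percentile 3.49 and 2 WT-only peaks, the higher at percentile 53.6. The Irx5KO share of genotype-only peaks was 48.0% over all coding genes and 40.1% over coding genes up to 2000 bp. Olfactory and vomeronasal receptor genes stood at 36.6%. This stretch was singled out after its values were seen.

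The 10 members from Krtap22-2 to Krtap11-1, mostly high glycine-tyrosine genes, had 65 Irx5KO and 67 WT peaks, with gene-end peaks in both lists at 8 and in neither at Krtap8-1 and Krtap7-1. Krtap6-2 carried the highest-ranked peak over any member in the Irx5KO list, chr16:89419221-89420100, at percentile 99.4. It covered 98.6% of the gene. The WT peak there, chr16:89419631-89420170, stood at percentile 91.9 and covered 61.0%. Krtap6-2 and its neighbour Krtap21-1 each had 7 Irx5KO and 8 WT peaks (1 WT-only). Krtap6-5 had 7 and 6 peaks (1 Irx5KO-only) and Krtap20-2 had 7 and 6, all shared.

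Krtap11-1, a high sulfur gene at the far end of the cluster, had 21 Irx5KO and 20 WT peaks, 3 of them Irx5KO-only and 2 WT-only. The outermost assigned peak lay at 49933 bp in the Irx5KO list and 49958 bp in the WT list, and the nearest unassigned Irx5KO peak at 50728 bp. In all, 16 Irx5KO and 14 WT peaks were nearest to a member but beyond the limit. The highest-ranked genotype-only peaks were near Krtap11-1 (chr16:89591361-89591670, percentile 62.4) and Krtap13-1 (56.7) in the Irx5KO list, and near Krtap8-1 (chr16:89496351-89496550, 63.4) and Krtap19-5 (53.6) in the WT list. Krtap22-2 had 4 Irx5KO and 6 WT peaks (1 Irx5KO-only and 3 WT-only), Krtap8-1 had 2 and 4 (2 WT-only), and Krtap7-1 had 5 and 3 (2 Irx5KO-only). The 15 Irx5KO-only and 24 WT-only peaks of the whole cluster gave an Irx5KO share of 38.5% (interval 24.9 to 54.1).

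The shares of the 3 clusters, 58.3%, 57.9% and 38.5%, have intervals that overlap one another, and each interval holds the 48.0% of all coding genes. Each interval also holds the 40.1% of coding genes up to 2000 bp and the 36.6% of olfactory and vomeronasal receptor genes. The 4 members elsewhere all had gene-end peaks in both lists. Krtap28-13 on chromosome 1 had 6 Irx5KO and 3 WT peaks (3 Irx5KO-only, the higher-ranked at percentiles 29.0 and 7.71). On chromosome 10, where the Krtap genes lie inside the span of the gene Tspear, Krtap10-4 had 2 and 3 peaks (1 Irx5KO-only and 2 WT-only), and Krtap12-1 and Krtap10-10 had 1 shared peak each per list.

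By protein class, gene-end peaks were in both lists at 14 of 16 ultra-high sulfur genes, 9 of 15 high glycine-tyrosine genes, 4 of 15 high sulfur genes and 6 of 10 genes not classed. Neither list had one at 2, 3, 9 and 1 of them. Both lists had one at 75.2% of all coding genes and 62.0% of coding genes up to 2000 bp, and neither list at 14.7% and 25.8%. The genes not classed belong to the families Krtap10, Krtap12, Krtap16, Krtap17, Krtap28, Krtap29 and Krtap31. Placing them in a class would change the counts of that class. The class follows position, since the ultra-high sulfur genes lie on chromosomes 7 and 11 and the high glycine-tyrosine genes on chromosome 16. At 200 bp into the gene, peaks covered 10 (Irx5KO) and 12 (WT) of 15 ultra-high sulfur starts, 8 and 8 of 14 high glycine-tyrosine starts, and 3 and 3 of 14 high sulfur starts. Of genotype-only peaks, ultra-high sulfur genes had 12 Irx5KO-only and 12 WT-only, high sulfur genes 11 and 6, and high glycine-tyrosine genes 6 and 16. The last is an Irx5KO share of 27.3% (interval 13.2 to 48.2), and this interval reaches the 48.0% of all coding genes. The interval also holds the 40.1% of coding genes up to 2000 bp and the 36.6% of olfactory and vomeronasal receptor genes.

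By family, both lists held gene-end peaks at all 5 Krtap5 genes, all 4 Krtap6 genes and 7 of 8 Krtap4 genes. The background was 75.2% of all coding genes and 62.0% of coding genes up to 2000 bp. The 3 Krtap1 genes had none in either list. The 8 Krtap4 genes had 4 Irx5KO-only and 5 WT-only peaks, the 4 Krtap6 genes 1 and 3, and the 6 Krtap19 genes 2 and 7. The Irx5KO list gave 48.0% of genotype-only peaks over all coding genes and 40.1% over coding genes up to 2000 bp. A peak overlapped the gene body at 29 of 56 members in the Irx5KO list and 30 in the WT list, which is 51.8% and 53.6%. Over all coding genes, most of them far longer, it did at 89.2% and 88.1%. For coding genes up to 2000 bp the shares were 59.2% and 61.2%, and for keratin genes 60.4% and 49.1%.

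The spans of the clusters were covered by peaks to different degrees. From the first to the last member, peaks covered 29.1% (Irx5KO) and 29.9% (WT) of 129.97 kb on chromosome 7, 15.7% and 15.1% of 444 kb on chromosome 11, and 17.8% and 18.5% of 960 kb on chromosome 16. The genome stood at 17.0% and 17.5%. The 500 kb on either side of each span were covered less, at 6.59% and 10.5% (Irx5KO) beside chromosome 7, 5.85% and 8.26% beside chromosome 11, and 8.85% and 12.6% beside chromosome 16. In the WT list these flanks were covered at 7.07% and 8.32%, 4.82% and 5.54%, and 9.08% and 12.1%. The type I keratin span, which holds the Krtap cluster of chromosome 11, was covered at 10.5% and 9.42%, and the type II keratin span at 9.81% and 8.26%.

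Of the bases covered in either list, 74.5% were covered in both on chromosome 7, 77.0% on chromosome 11 and 79.9% on chromosome 16, against 76.8% in the genome and 66.6% and 59.3% in the keratin spans. Within the spans, Krtap gene bodies were covered at 74.8% and 80.8% on chromosome 7, where bases outside coding genes were covered at 26.8% and 26.99%. On chromosome 11 the bodies were covered at 21.4% and 20.5% (outside 14.5% and 13.97%), and on chromosome 16 at 26.3% and 23.0% (outside 17.2% and 17.8%). Bodies of the other coding genes in these spans were covered more than those of Krtap genes, at 46.5% and 42.1% on chromosome 11 and at 38.3% and 45.1% on chromosome 16. On chromosome 7 the other bodies were covered at 29.5% and 32.1%.

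**Figure D4:**
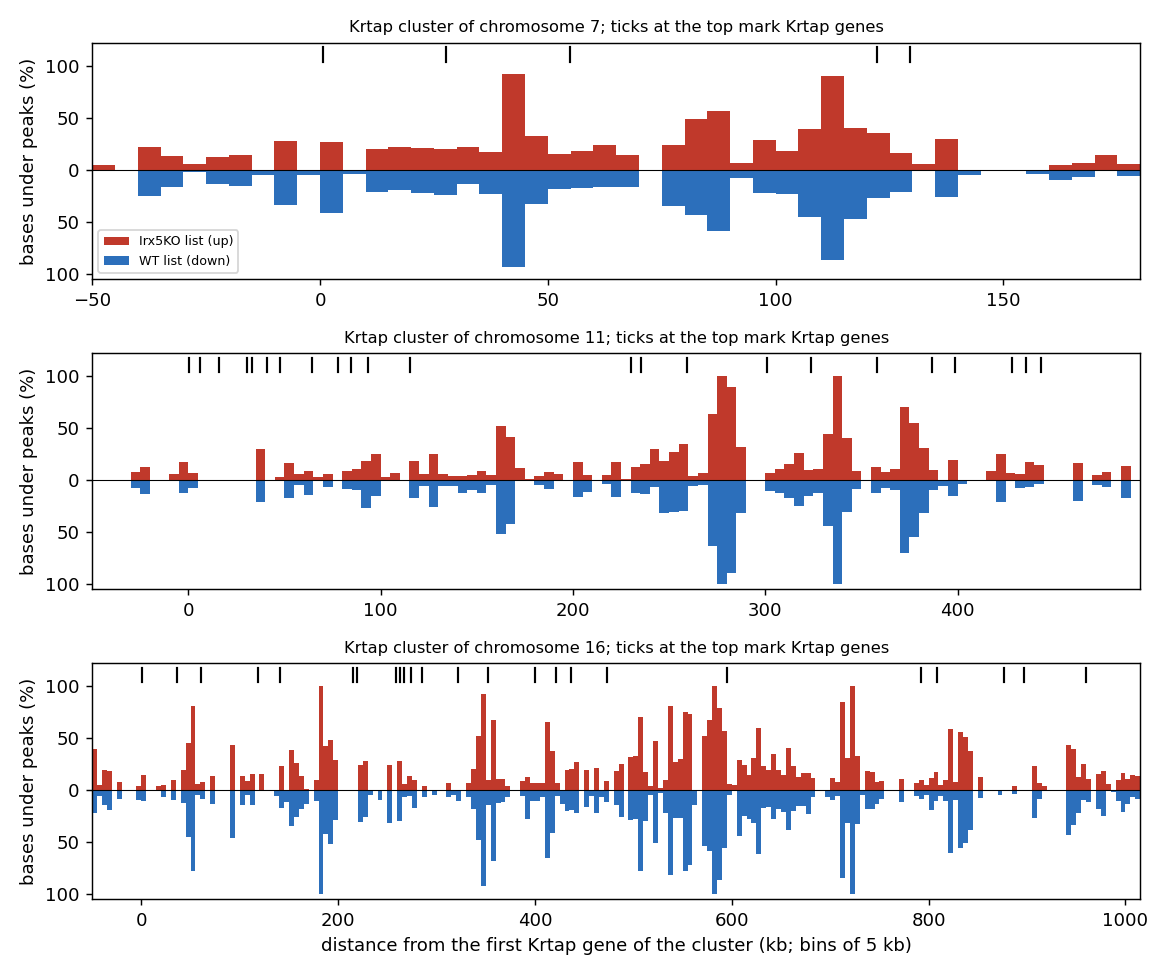
Percent of bases under peaks in bins of 5 kb along the clusters of chromosomes 7, 11 and 16, Irx5KO upward and WT downward, by distance in kb from the first Krtap gene, with ticks for Krtap genes. Tall bins occur at the same places in both lists, and several Krtap genes at the left of the chromosome 11 map stand in bins with no covered base.

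Genes of hair differentiation outside the family, 35 of 37 listed genes found by symbol, had 88 Irx5KO-only and 46 WT-only peaks, so that the Irx5KO share was 65.7% (interval 57.3 to 73.2). All keratin genes, which overlap with that list, had 77 and 39, or 66.4% (interval 57.4 to 74.3). Krtap genes, at 48.7% (interval 37.8 to 59.7), had overlapping intervals with both, and no test of the difference was run. Over all coding genes the share was 48.0%. The 8 HFSC markers, with 49 Irx5KO-only and 24 WT-only peaks, stood at 67.1% (interval 55.7 to 76.8). Shares of the other marker lists ran from 41.2% (fibroblast) to 55.6% (epidermis). With peaks below the median score of each list removed, keratin genes had 2 Irx5KO-only and 6 WT-only peaks. Their share was then 25%, beside 44.7% over all coding genes. Both lists had a gene-end peak at 15 of the 35 genes, the Irx5KO list alone at 2 (Krt83 and S100a3), the WT list alone at 1 (Krt33a) and neither at 17. These classes held 75.2%, 6.07%, 3.99% and 14.7% of all coding genes. Among regulators, Lef1, a Wnt effector of hair, had 13 Irx5KO-only and 7 WT-only peaks, Foxn1, a regulator of hair keratinisation, had 7 and 2, and Msx2, a homeobox factor of the shaft, had 8 and 1. Msx1 had 5 and 13, and Hoxc13, which acts on hair keratin and Krtap genes, had 0 and 1. Of the other regulators listed, Dlx3 had 6 and 1, Gata3 7 and 2, Cux1 10 and 3, and Ovol1 1 and 0. Krt26, Krt36 and Krt73 had no assigned peak in either list.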

How the data were processed

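Open chromatin was measured by ATAC-seq in 4 mouse HFSC samples, 2 per genotype, and the authors deposited 1 peak list per genotype, which the labels give to both samples. Each peak has a position, a whole-number score of at least 50 set by the authors, and an offset that the deposited lists give for its summit. Build mm10 and, among other tools, cutadapt 2.9, Bowtie2 and Genrich 0.6 stand in the submitters' processing notes. How these were set, whether reads were shifted for the Tn5 cut and how reads that map to several places were handled is not given in the sources used here. Krtap copies are alike, so such reads could move their peaks, which was not tested. Contigs without a place on a chromosome held 1188 Irx5KO and 1733 WT peaks, which were left out.

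The midpoint of each peak gave its distance to gene ends, and the nearest coding gene within 50000 bp took the peak, in a RefSeq table of GRCm38 with 21887 coding genes. Shared peaks overlapped the other list by 1 bp or more. A gene-end peak reached within 1000 bp of the lower or upper end of a gene. A group was called a cluster where neighbouring members lay at most 500 kb apart. Percentiles rank the deposited score within a list. Protein classes came from the family number by general knowledge, since a planned sorting by amino acids needed protein sequences that were not used here.

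Named members were, per cluster, up to 4 with the most peaks, up to 4 each with a gene-end peak in 1 list only or no peak, those nearest to the 2 highest-scored genotype-only peaks of each list, and the 3 with the largest excess in each direction. Values of other members complete the counts. The members and lists were chosen with earlier results of these data known. The code was tested on simulated data, where all 200 planted gene-end peaks among 21887 genes were recovered. Python 3.11.15, numpy 2.4.6, pandas 2.3.3, scipy 1.17.1 and matplotlib 3.10.9 were used. Alternatives changed the score, width, list length, overlap, distance, window and span.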

Additional observations from a re-analysis of the deposited data

How the results depend on the processing

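No paired analysis was possible because each genotype had 1 pooled list and no result came from a test. The alternatives moved 15 of 79 recomputed values past counting error or by more than 1.5 times. With peaks below the median score of each list (the upper 50%) removed, the Irx5KO share of genotype-only peaks was 62.5% over all members, from 5 Irx5KO-only and 3 WT-only peaks, 100% on chromosomes 7 and 11, from 1 peak each, and 50% on chromosome 16. It was 44.7% over all coding genes and 36.7% over coding genes up to 2000 bp. For keratin genes it was 25%, from 2 Irx5KO-only and 6 WT-only peaks. Gene-end peaks then stood in both lists at 21 members, in the Irx5KO list alone at 2, in the WT list alone at 1 and in neither at 32, and over the 21887 coding genes at 8839, 2562, 575 and 9911. Those in 1 list were Krtap28-13 and Krtap22-2 (Irx5KO) and Krtap20-2 (WT), which had gene-end peaks in both lists before this cut. The 8 members with a gene-end peak in 1 list before the cut had none after it. The bases common to both lists were then 83.1%, 88.2% and 86.1% on chromosomes 7, 11 and 16. Without peaks wider than 2000 bp they were 60.4%, 60.8% and 65.5%. With windows of 3000 bp, the Irx5KO list alone had a gene-end peak at 3 members and neither list at 7. Under all other alternatives the share over all members lay between 47.9% and 52.2%, and that of chromosome 16 between 35.3% and 43.6%. Which list had more genotype-only peaks over all members changed with the setting, from 37 Irx5KO and 39 WT to 37 and 36 with equal list lengths, 30 and 29 within 10 kb and 24 and 22 within 5 kb. The setting without members near another coding gene and the one with the annotated start alone were chosen after seeing the data. With 1 list per genotype and no read depth, absence from a list cannot be told from a site under the threshold.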

Other observations

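Some peaks in the Krtap clusters were wide, and these were nearly the same in both lists. Peaks of at least 5000 bp numbered 1 and 1 on chromosome 7, 3 and 3 on chromosome 11, and 7 (Irx5KO) and 6 (WT) on chromosome 16. The spans held 45 and 42, 93 and 82, and 212 and 226 peaks of any width. All standard chromosomes held 18123 and 19311 such wide peaks among 484992 and 498061. Wide peaks were thus no more frequent in the spans than over all standard chromosomes. The widest, 10690 bp on chromosome 11 (99821941 to 99832630), had the same borders in both lists and stood at percentiles 99.6 and 99.5. The one on chromosome 7 (142214891 to 142220750) also had the same borders. Each lay at least 97.3% under peaks of the other list. Those near Krtap27-1, Krtap16-3 and Krtap6-2 were assigned to these genes, and the others to genes with Gm or Rik symbols. They were singled out after their values were seen.

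Coding genes without a Krtap symbol lay between the members, 5 on chromosome 7, 15 on chromosome 11 and 34 on chromosome 16. Gene-end peaks were in both lists at 5, 13 and 27 of them, against 75.2% of all coding genes. On chromosome 11 their genotype-only peaks were 11 from Irx5KO and 4 from WT, and on chromosome 16 they were 14 and 20. The Irx5KO shares were 73.3% (interval 48.0 to 89.1) and 41.2% (interval 26.4 to 57.8), against 48.0% over all coding genes.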
